A study of Mus musculus with 10 samples.

Results

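Emr1, Cd68, Mrc1, Fcgr1, Vcam1, Cd5l, Axl and Mertk, genes of the identity of tissue macrophages and of their uptake of dying cells, were followed in sorted progenitor cells of mouse bone marrow. They were taken by symbol from a table of 12791 gene names, and 8 of 8 were listed. The set was chosen by its high fold changes in the first comparison described below, together with the known roles of the genes. The cells were Lin- c-Kit+ Sca-1- hematopoietic progenitors, which carry the receptor c-Kit but neither lineage markers nor Sca-1, from C57BL/6 mice, measured by bulk RNA sequencing. The labels give 3 groups, which are 3 KDR-positive libraries and 4 KDR-negative libraries from mice carrying the mouse glioma line GL261 at week 4, and 3 naive libraries, for which the mice had no tumor. KDR, which binds vascular endothelial growth factor, was read through GFP knocked into its gene. The sources used here do not say whether naive mice carried that allele, how old or how many the mice were, or which antibodies made up the lineage panel. Nothing in the labels ties each library to a mouse of its own, so p-values can speak only for the spread between these libraries, which may be technical.

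The authors' deposited table compares groups and holds no value per library, so no value per sample, depth or standard deviation can be given. It covers 2 comparisons, each with the log2 fold change of a gene, its mean log2 CPM and its p-value before and after adjustment. Its header names no groups. By their order in the table they are the first and the second comparison here. A positive fold change means a higher level in what is called the numerator group than in the denominator group. These sides were not assigned to the KDR-positive, KDR-negative or naive libraries, because nothing in the header ties them to the labels. Higher and lower therefore have no known direction between tumor-bearing and naive mice or between KDR-positive and KDR-negative cells. With equal weights, the denominator levels of the comparisons matched more closely than any other pair of sides, with a median absolute deviation of 0.0087 (log2) over 9044 genes against 0.064 for the next pair, and are read as 1 shared group. Group levels were worked out from these columns and are called derived, and an approximate standard error from the fold change and the authors' p-value. Derived levels are given in CPM, as the columns are. Those of the first numerator group sum to more than CPM can, as described below, and are inflated beside the other groups.

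Tissue macrophages live for long times in organs and clear cells and debris there. In bone marrow they also sit at the centre of erythroblastic islands, where they hold maturing red cell precursors and take up the nuclei these cast off. Uptake of dying cells, called efferocytosis, begins when receptors bind phosphatidylserine on the dying cell, either directly or through bridging proteins such as Gas6 and protein S, which link it to the receptor kinases Tyro3, Axl and Mertk. Mature macrophages are not part of a progenitor gate, but their transcripts can be read in any bulk sample that holds them. In a bulk sample, fewer cells of a type and less RNA per cell cannot be told apart.

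The genes were far apart between the groups of the first comparison. Emr1 encodes the surface protein F4/80, after which mouse macrophages are most often identified, and now has the symbol Adgre1. Its derived level was 151 CPM in the numerator group and 7.08 CPM in the denominator group. The authors' deposited table gives it a log2 fold change of 4.41, with an approximate standard error of 0.47. Cd68, a glycoprotein of lysosomes and endosomes, had 362 CPM in the numerator group and 42.4 CPM in the denominator group. Its log2 fold change of 3.09 (approximate standard error 0.39) in the authors' deposited table was the smallest among the 8 genes.

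Receptors for sugars and antibodies stood further apart. Mrc1, the mannose receptor CD206, had 205 CPM in the numerator group and 5.39 CPM in the denominator group. That is a log2 fold change of 5.25 (approximate standard error 0.50) in the authors' deposited table. Fcgr1 encodes CD64, the high-affinity receptor for IgG. It had 60.5 CPM in the numerator group and 1.41 CPM in the denominator group, with a log2 fold change of 5.42 (approximate standard error 0.74) in the authors' deposited table. Its denominator level lay near 1 CPM, and since the depth is unknown the number of reads behind it is unknown too.

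Vcam1 is the adhesion molecule through which island macrophages hold erythroblasts, and endothelial and stromal cells carry it as well. It had 440 CPM in the numerator group and 27.3 CPM in the denominator group, and the authors' deposited table gives a log2 fold change of 4.01 (approximate standard error 0.41). Cd5l encodes a secreted scavenger protein, also called AIM, that tissue macrophages make under control of the nuclear receptor LXR. Its levels were 315 CPM in the numerator group and 8.73 CPM in the denominator group, which the authors' deposited table gives as a log2 fold change of 5.17 (approximate standard error 0.55).

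Axl and Mertk are receptor kinases of the TAM family and bind the bridging proteins Gas6 and protein S. Axl had 273 CPM in the numerator group and 8.54 CPM in the denominator group, with a log2 fold change of 5.0 (approximate standard error 0.50) in the authors' deposited table. Mertk, which marks macrophages that take up dying cells at steady state, had 73.4 CPM in the numerator group and 1.59 CPM in the denominator group. Its log2 fold change of 5.53 (approximate standard error 0.66) in the authors' deposited table was the largest among the 8 genes. Whether the fold changes of the 8 genes differ from each other was not tested.

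**Figure D1:**
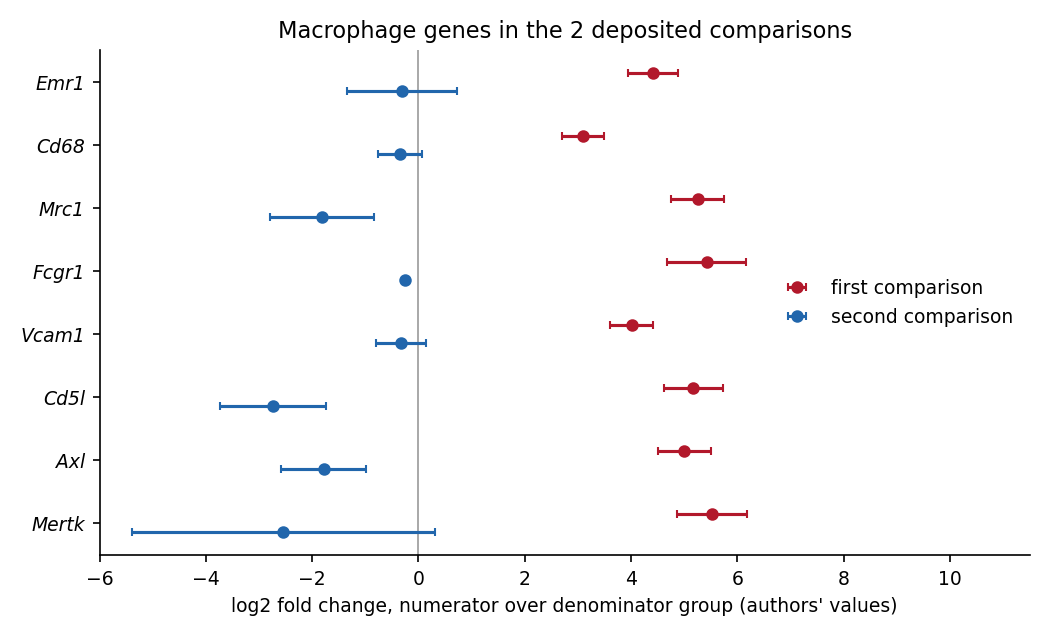
Log2 fold changes (horizontal axis, numerator over denominator group, authors' deposited values) of the 8 macrophage genes in the first comparison (red) and the second (blue), with bars of 1 approximate standard error. All red points lie between 3.09 and 5.53, and the blue points lie either between -0.35 and -0.25 or between -2.73 and -1.78; no error could be derived for Fcgr1 in the second comparison, whose p-value is 1.

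In the first comparison 8 of 8 genes had an adjusted p under 0.05 in the authors' deposited table and were higher in the numerator group, where 18.8% of all genes were called higher and 3.49% lower. At adjusted p thresholds of 0.01 and 0.10 the 8 were also called higher, where 15.8% and 20.6% of all genes were. The genes were chosen with these fold changes known, so the count describes the choice. Their median log2 fold change was 5.08, against -0.13 over all 12791 genes. Counted from the largest positive fold change, Mertk stood at place 48, Fcgr1 at 56, Mrc1 at 65, Cd5l at 71, Axl at 91, Emr1 at 137, Vcam1 at 171 and Cd68 at 333 of the authors' deposited table.

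Fold changes of the first comparison also moved with the level of a gene and with the total of the groups. Genes whose mean lay within 0.5 log2 CPM of the mean of Vcam1 had a median log2 fold change of 1.68, and those as near to Fcgr1 had -0.17. Of the 353 genes near the level of Vcam1 in the authors' deposited table, 8 had a larger fold change than Vcam1. Near Mertk it was 10 of 2740 and near Cd68, with the smallest fold change, 17 of 412. The derived levels summed over all genes were higher in the numerator group by 1.49 on the log2 scale, at 2.13e+06 CPM against 756537 CPM. For the second numerator group the sum was 723665 CPM. The sum of the first numerator group is more than the CPM of a library can add up to. Its derived levels are therefore on a rescaled, inflated scale and are not plain CPM. With equal totals each fold change is smaller by 1.49, which leaves 1.60 for Cd68, 2.52 for Vcam1, 2.92 for Emr1 and 4.04 for Mertk. The genes were chosen for large fold changes, so a shift of this size could turn none of them.

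The start regions of genes that stood apart together are shown for 4 of them, 2 with small and 2 with large negative fold changes in the second comparison described next. RefSeq windows of build GRCm38.p6 were found for 6 of the 8 genes, all but Emr1 and Vcam1. The 250 bases before the gene start are given 5′ to 3′ on the strand of the gene, for Cd68 from chr11:69666171-69666420 (minus strand), for Fcgr1 from chr3:96293970-96294219 (minus strand), for Axl from chr7:25788734-25788983 (minus strand) and for Mertk from chr2:128698665-128698914 (plus strand). Capitals mark GAGGAA or its reverse complement TTCCTC, the core letters of the PU-box bound by the myeloid factor PU.1, and, in Fcgr1, TTCCCAGAA, which has the letters TTCNNNGAA of a gamma interferon activation site.
Cd68: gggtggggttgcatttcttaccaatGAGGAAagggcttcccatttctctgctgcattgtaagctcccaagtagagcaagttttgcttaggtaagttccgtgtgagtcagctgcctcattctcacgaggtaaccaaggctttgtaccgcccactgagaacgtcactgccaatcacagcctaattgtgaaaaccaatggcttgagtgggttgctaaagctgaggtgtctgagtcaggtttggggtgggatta
Fcgr1: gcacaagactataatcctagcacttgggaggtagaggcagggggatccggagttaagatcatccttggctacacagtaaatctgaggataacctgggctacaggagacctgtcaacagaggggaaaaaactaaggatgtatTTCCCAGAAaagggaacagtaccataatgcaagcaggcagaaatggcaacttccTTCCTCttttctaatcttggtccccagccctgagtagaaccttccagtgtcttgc
Axl: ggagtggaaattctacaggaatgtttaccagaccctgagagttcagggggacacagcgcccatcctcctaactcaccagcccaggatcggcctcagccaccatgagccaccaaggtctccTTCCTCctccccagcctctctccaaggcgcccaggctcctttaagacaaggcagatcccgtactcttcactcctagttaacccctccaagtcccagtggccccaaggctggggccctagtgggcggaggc
Mertk: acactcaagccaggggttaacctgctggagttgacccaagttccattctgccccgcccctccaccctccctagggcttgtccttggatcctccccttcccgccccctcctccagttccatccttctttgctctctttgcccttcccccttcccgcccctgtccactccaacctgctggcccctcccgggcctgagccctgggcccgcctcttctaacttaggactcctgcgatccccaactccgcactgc

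The letters GAGGAA occurred on either strand in 5 of the 6 windows (Cd68, Mrc1, Fcgr1, Cd5l and Axl), and in 23.3% of all 32851 windows of this length. Mrc1 held them 3 times. In Fcgr1 the match began 55 bases before the gene start, and in Axl 130 and in Cd68 225 bases before it. The letters TTCNNNGAA occurred in 1 of the 6 windows, that of Fcgr1, where they began 109 bases before the start, and in 7.02% of all windows. A site of this kind is known from the promoter of the human gene for CD64, which interferon gamma induces. The motifs did not overlap each other in these windows, and they were chosen among 13 motifs that were searched on both strands. Mertk held neither. The others were GGGCGG (SP1), in 4 of the 6 windows and 32.7% of all; TTNCNNAA (CEBP factors), in 2 and 36.8%; TGCTGA (MAF factors), in 1 and 16.1%; CATGTG (E-box), in 1 and 12.3%; and TGANTCA (AP-1), in 1 and 6.75%. In 0 of the 6 windows were found GAGGAAGT, the longer PU.1 site that contains GAGGAA (2.44% of all windows), the E-box CACGTG (6.02%), the CLEAR element TCACGTGA that contains it (0.785%), the palindrome TTGCGCAA of CEBP factors (0.164%), the interferon-stimulated response element (2.98%) and TATAAA (12.4%). A match of letters is a description and shows no binding.

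The second comparison set another group against the same denominator group, and the 8 genes fell into 2 sets of 4 by the size of their fold change. All 8 lay below 0 there, as did 49.6% of all genes, with a median log2 fold change of -1.06 against 0.00 over all genes. By the adjusted p-values of the authors' deposited table, of the 8 genes 0 were called, where 0.109% of all genes were called (14 of 12791) and 0.0391% called lower. At thresholds of 0.01 and 0.10 it was also 0 of 8, where 0.086% and 0.133% of all genes were called. By its unadjusted p-values under 0.05, 2 of 8 were lower, Cd5l and Axl, where 0.211% of all genes were lower by that measure and 0.336% differed in either direction. No other test could be run. The p-values of this comparison lie near 1 in general, with a median of 0.922 over all genes.

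Cd5l, Mertk, Mrc1 and Axl had the larger differences. Cd5l had 1.27 CPM in the second numerator group and 8.48 CPM in the denominator group, and the authors' deposited table gives a log2 fold change of -2.73 (unadjusted p = 0.0062, adjusted p = 1). The approximate 95% interval of this value ran from -4.69 to -0.78. Axl had 2.40 CPM in the second numerator group and 8.25 CPM in the denominator group, with a log2 fold change of -1.78 (unadjusted p = 0.025, adjusted p = 1) in the authors' deposited table and an approximate 95% interval from -3.34 to -0.22. Both intervals are for a single gene and take no account of the number of genes tested.

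Mrc1 stood at 1.45 CPM in the second numerator group and 5.11 CPM in the denominator group. Its log2 fold change in the authors' deposited table was -1.82 (unadjusted p = 0.064, adjusted p = 1), with an approximate 95% interval from -3.74 to 0.11. For Mertk the derived levels were 0.226 CPM in the second numerator group and 1.31 CPM in the denominator group. The authors' deposited table gives a fold change (log2) of -2.54 (unadjusted p = 0.372, adjusted p = 1), which had an approximate 95% interval from -8.12 to 3.04, too wide to place it. Counted from the most negative fold change of the authors' deposited table, Cd5l stood at place 9, Mertk at 12, Mrc1 at 42 and Axl at 46, and 1.21% of all genes lay below -1.

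Emr1, Cd68, Vcam1 and Fcgr1 had the smaller differences from the denominator group. Cd68 had 33.1 CPM in the second numerator group and 42.1 CPM in the denominator group, with a log2 fold change of -0.35 (approximate 95% interval from -1.17 to 0.47, adjusted p = 1) in the authors' deposited table. Vcam1 had 21.3 CPM in the second numerator group and 26.8 CPM in the denominator group, with -0.33 (from -1.26 to 0.60, adjusted p = 1) in the authors' deposited table. These intervals did not reach the value of Cd5l, -2.73, but they overlapped its own approximate interval, from -4.69 to -0.78. Emr1 had 5.58 CPM in the second numerator group and 6.90 CPM in the denominator group, and its -0.31 (log2) in the authors' deposited table had a wide approximate 95% interval, from -2.33 to 1.72. Fcgr1 had 1.05 CPM in the second numerator group and 1.25 CPM in the denominator group, with -0.25 and a p-value of 1 in the authors' deposited table. The split into 2 sets of 4 was seen in the values themselves, and whether the sets differ was not tested. It follows the fold change of genes at unlike levels. Among genes with a mean within 0.5 log2 CPM, 16 of 3250 lay lower than Cd68 and 48 of 3090 lower than Vcam1. For Emr1 it was 196 of 1187 and for Fcgr1 337 of 719. In the other set it was 4 of 1026 for Cd5l, 2 of 455 for Mertk, 5 of 915 for Mrc1 and 3 of 1076 for Axl. Cd68 thus also stood low for its level.

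**Figure D2:**
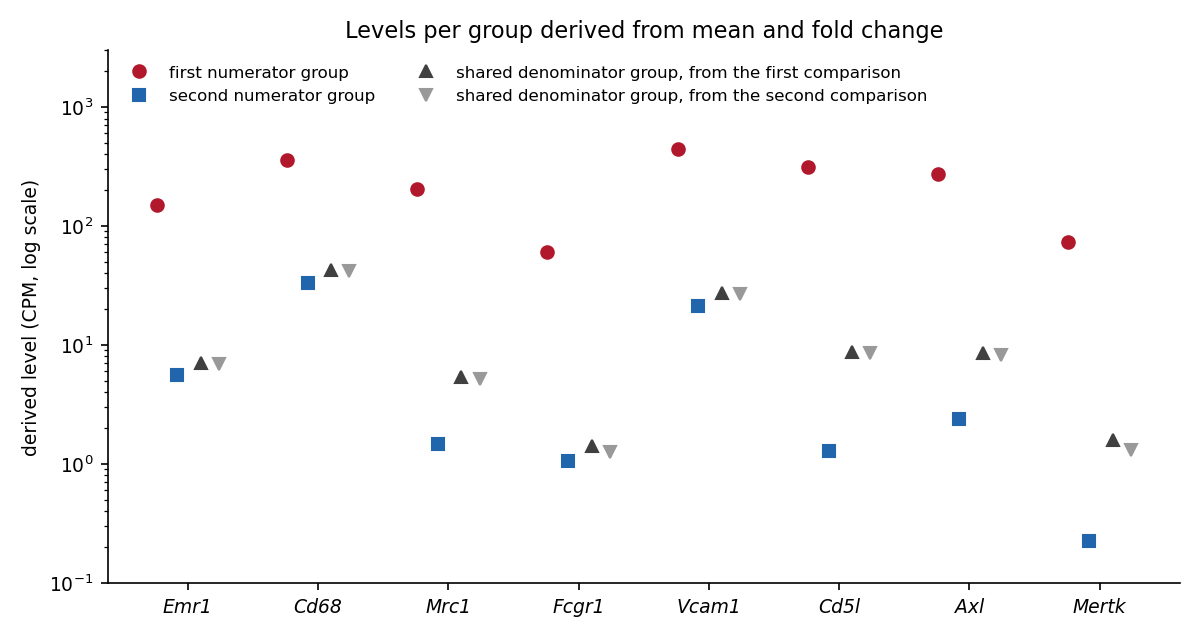
Derived levels (vertical axis, CPM on a log scale) of the 8 macrophage genes in the first numerator group, the second numerator group and the shared denominator group, the last derived once from each comparison. Levels are not adjusted to equal totals, and those of the first numerator group are on an inflated scale. Each gene is highest in the first numerator group, and the second numerator group lies below the denominator group by the widest gaps for Cd5l, Mertk, Mrc1 and Axl.

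The order of the 3 groups is given here by the derived levels alone. For each of the 8 genes the first numerator group was highest, the denominator group next and the second numerator group lowest. For 0 of 8 did the lower step pass the threshold, so the order of the denominator and second numerator groups is not established. The shared denominator level comes out once from each comparison. The weights of the derivation were fitted to make these estimates match, so their agreement is no independent check. The estimates differed by 0.01 (log2) for Cd68, 0.04 for Cd5l and 0.05 for Axl, but by 0.18 for Fcgr1 and 0.27 for Mertk, the genes near 1 CPM. For Fcgr1 the gap of 0.18 stands beside a log2 fold change of -0.25 in the second comparison of the authors' deposited table. Since the comparisons share the denominator libraries, a departure of those libraries would move both fold changes of a gene.

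**Figure D3:**
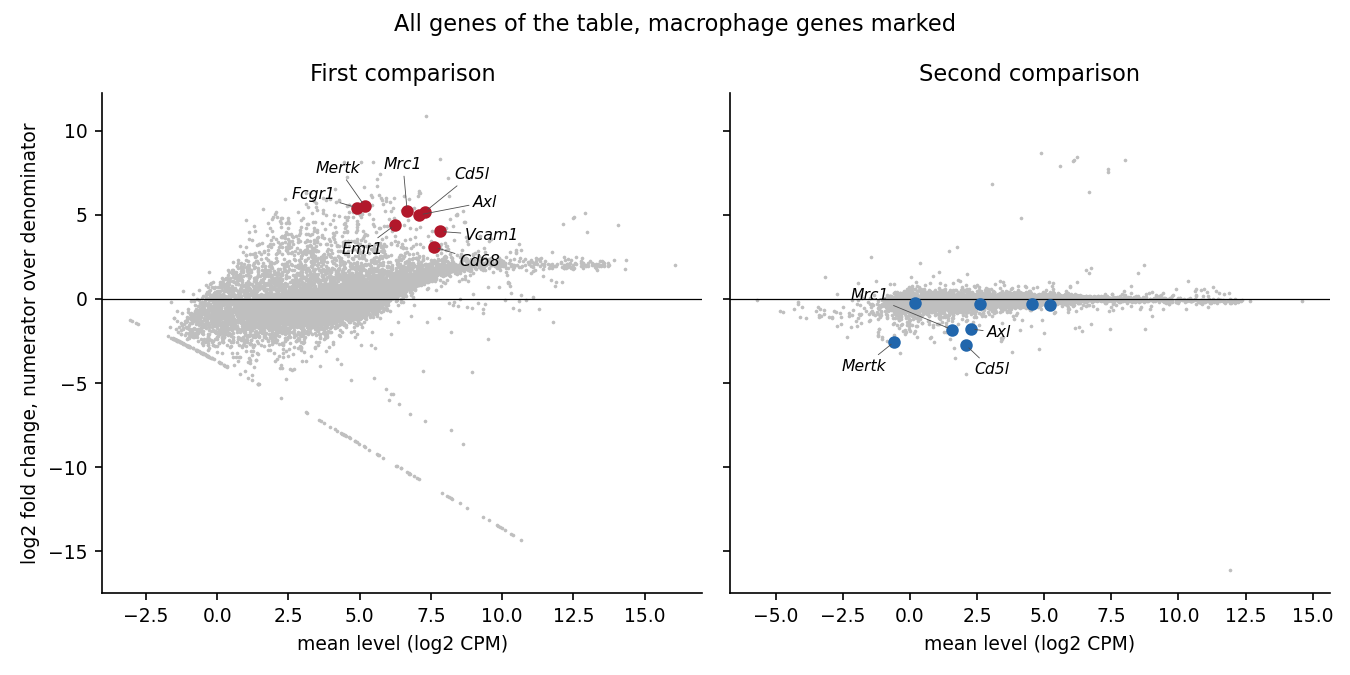
Log2 fold change (vertical axis, numerator over denominator) against mean level (horizontal axis, log2 CPM) for all genes of the authors' deposited table with a finite mean, first comparison at left and second at right, with the 8 macrophage genes as large points. In the first comparison they stand above the cloud of genes of like level. In the second Cd5l, Mertk, Mrc1 and Axl have the most negative fold changes of the 8. Cd68 also lies low there among genes of its level, while Fcgr1 lies within the cloud.

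Other genes of tissue macrophages moved in the same direction as the 8 in the first comparison. Of 24 surface and secreted genes, 19 were listed, and 19 of 19 were higher and 0 lower in the authors' deposited table, with a median log2 fold change of 4.25 (2.76 with equal totals). This list, like the others below, was drawn up with earlier results of these data known. For this list and each later one, the shares over all genes in the first comparison were 18.8% called higher and 3.49% lower. Pilra, an inhibitory receptor, stood at 5.25, Cd163, the scavenger receptor for hemoglobin bound to haptoglobin, at 4.40, Siglec1, the sialic acid receptor CD169 of marrow macrophages, at 5.56 and Slc11a1, a metal transporter of the phagosome, at 5.67 in the authors' deposited table. In the second comparison 0 of 19 were called, where 0.109% of all genes were. There 16 of 19 lay below 0 and 7 below -1, against 49.6% and 1.21% of all genes. Siglec1 stood at -2.56 and Slc11a1 at -2.02 but Cd163 at -0.63 and Pilra at -0.40 in that comparison of the authors' deposited table. Over the 19 genes the median there was -0.59.

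Transcription factors of macrophages were mixed. Of 19 listed, 9 were higher and 1 lower in the first comparison of the authors' deposited table. Spic, which red pulp and marrow macrophages need, stood at 5.31, Maf at 5.13 and Pparg at 5.49, all in the authors' deposited table. This list had a median of 0.54, which falls below 0 with equal totals, to -0.95. The lower gene was Id3, which the authors' deposited table lists at -3.44 with an adjusted p of 0.0059.

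Among 21 listed receptors and bridging proteins of efferocytosis, 13 were higher and 0 lower in the first comparison of the authors' deposited table, with a median of 2.50 (1.01 with equal totals). The complement genes C1qa at 5.0, C1qb at 5.0 and C1qc at 5.07, whose product coats dying cells, had the smallest p-values of that list in the authors' deposited table, followed by Itgb3, an integrin chain that platelets also carry, at 2.86. The ligands of Axl and Mertk were higher too, Gas6 at 3.16 (adjusted p = 0.0015) and Pros1, for protein S, at 1.74 (adjusted p = 0.0043) in the authors' deposited table, while Tyro3, the third TAM kinase, was not listed. Mfge8, a bridging protein that links dying cells to integrins, stood at -0.74 (adjusted p = 0.131) in the authors' deposited table and did not pass. Of these 21 genes 4 had an unadjusted p under 0.05 in the second comparison of the authors' deposited table, all lower, the 3 C1q genes and Thbs1, a bridging protein also released by platelets. Over all genes 0.211% were lower by that measure, and 0.109% were called in either direction by adjusted p. C1qa was the 1 gene of any list called in the second comparison, with a log2 fold change of -2.41 (adjusted p = 0.0195) in the authors' deposited table. This call is lost at a threshold of 0.01 and when small RNA genes are left out and p-values adjusted anew. Its derived levels were 3.89 CPM in the second numerator group and 20.6 CPM in the denominator group.

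Genes that act inside the cell were also listed. Of 31 genes of engulfment, phagosomes and digestion 14 were higher and 0 lower in the first comparison of the authors' deposited table, with a median of 0.61 that falls to -0.88 with equal totals. Rac1, the GTPase that drives engulfment, stood at 2.02, the lysosomal membrane gene Lamp1 at 2.34, the late endosome GTPase gene Rab7 at 1.84 and the mitochondrial carrier gene Ucp2 at 1.84 in the authors' deposited table. Of 21 signals of dying cells and their receptors 8 were higher and 3 lower in the authors' deposited table, with a median of 0.18 (-1.32 with equal totals). Calr stood there at 2.08, the CD47 receptor gene Sirpa at 2.46, the phosphatidylserine receptor gene Cd300a at 2.13 and the nucleotide receptor gene P2ry6 at 3.55 in the authors' deposited table. The lower ones were the fractalkine receptor gene Cx3cr1 at -2.59, the receptor gene Gpr132 at -1.68 and the sialic acid receptor gene Siglecg at -1.30 in the authors' deposited table.

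Partners of Fcgr1 were higher in 10 of 11 cases, with 0 lower, in the first comparison of the authors' deposited table, with a median of 2.17 (0.67 with equal totals). Fcgrt, the receptor that recycles IgG, stood at 4.21, Fcer1g, the signalling chain that CD64 needs at the surface, at 2.49 and the kinase gene Fgr at 4.01 in the authors' deposited table. Among 12 partners of Vcam1 and island genes 4 were higher and 2 lower in the authors' deposited table, with a median of 0.06 (-1.44 with equal totals). Over all genes 18.8% were called higher and 3.49% lower. Itgad, an integrin chain of red pulp macrophages that binds Vcam1, stood at 6.32 and Itga9 at 3.85 in the authors' deposited table. Itga4, which with Itgb1 forms the main Vcam1 receptor of progenitors, stood at -1.01 (adjusted p = 0.0107) and Itgb7 at -1.40 in the authors' deposited table. Itgb1 went the other way than Itga4, at 0.86 (adjusted p = 0.0202) in the authors' deposited table. Of 11 TAM signalling genes 4 were higher and 0 lower in the authors' deposited table, with a median of 0.46 (-1.04 with equal totals). Beside Gas6 and Pros1 these included the adaptor gene Grb2, at 1.45 in the authors' deposited table. In the second comparison 0 genes of these 3 lists had an adjusted or an unadjusted p under 0.05 in the authors' deposited table. Over all genes the shares were 0.109% by adjusted and 0.336% by unadjusted p.

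**Figure D4:**
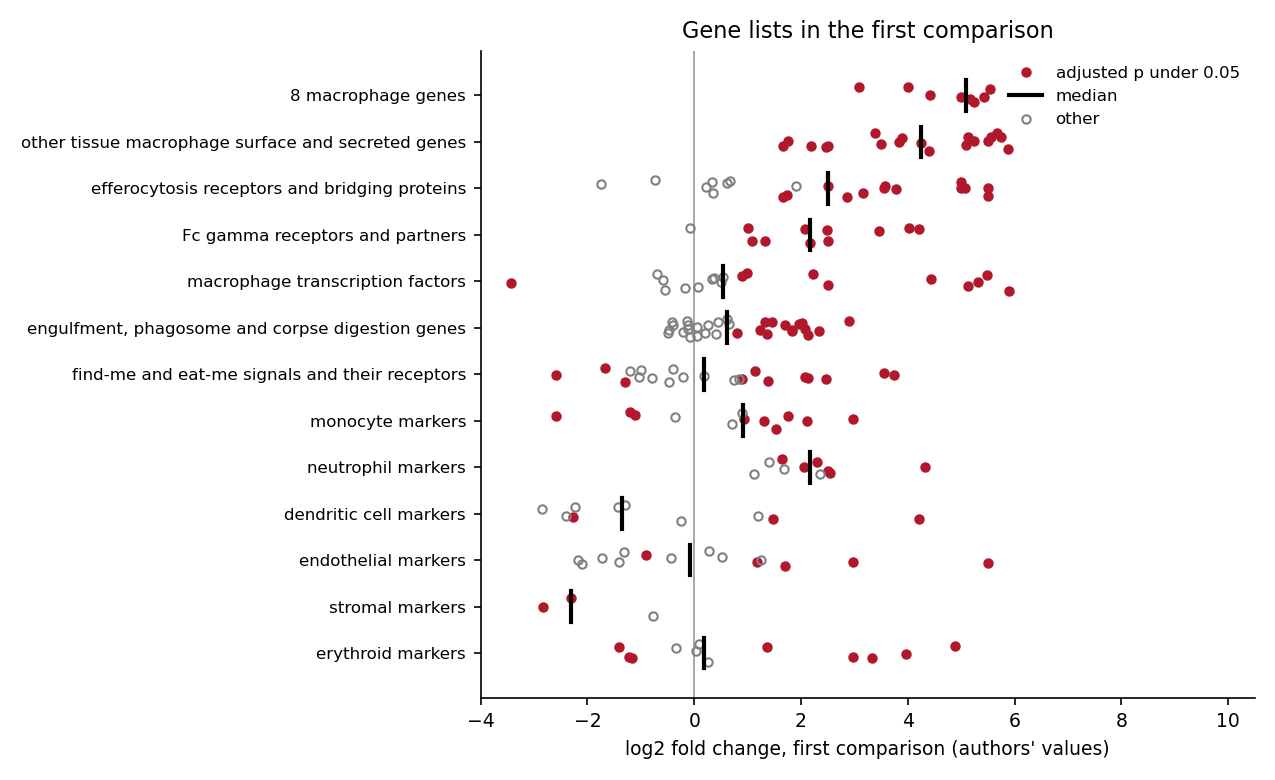
Log2 fold changes of the first comparison (horizontal axis, authors' deposited values) for the 8 macrophage genes and 12 of the 17 other lists, with 1 point a gene, filled at an adjusted p under 0.05, and a bar at the median. The macrophage genes have a median of 5.08 and the other surface and secreted macrophage genes 4.25, against 0.91 for monocyte, -0.09 for endothelial and -2.31 for stromal markers.

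Some markers of other cell types also differed in the first comparison, where 18.8% of all genes were called higher and 3.49% lower. Their part in the differences of the 8 genes was not tested. Of 12 monocyte markers 6 were higher and 3 lower in the authors' deposited table, with Cd14 at 2.98, Csf1r at 1.75, Chi3l3 at 2.12 and Mgst1 at 1.52. The lower ones were the chemokine receptor genes Ccr2 at -1.20 and Cx3cr1 at -2.59 and the coagulation factor gene F13a1 at -1.10 in the authors' deposited table. Csf1r stands in the list of macrophage genes too. Summed over the monocyte markers the derived level was 3207 CPM in the first numerator group, 1860 CPM in the second and 1793 to 1815 CPM in the denominator group. For the 8 macrophage genes the same sums were 1878 CPM in the first numerator group, 66.4 CPM in the second and 100.1 to 102 CPM in the denominator group. Sums of the first numerator group, here and below, are on its inflated scale and are not adjusted to equal totals. Of 10 listed neutrophil markers 6 were higher and 0 lower in the authors' deposited table, with S100a8 at 2.29, S100a9 at 2.51, Camp at 2.55 and Retnlg at 4.32. The list had a median of 2.18 (0.68 with equal totals) and summed to 1819 CPM in the first numerator group, 380 CPM in the second and 331 to 343 CPM in the denominator group. Ly6g, a defining neutrophil gene, was not listed.

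Vcam1 is shared with endothelial and stromal cells, whose markers were higher in some cases and lower in others. The shares over all genes were 18.8% called higher and 3.49% lower. Of 14 listed endothelial markers 4 were higher and 1 lower in the first comparison of the authors' deposited table, with a median of -0.09 (-1.58 with equal totals). The higher ones were Vwf at 2.96, which megakaryocytes also express, the scavenger receptor gene Stab2 at 5.50, which also stands in the list of efferocytosis receptors, and Esam at 1.69 with Tie1 at 1.17, all from the authors' deposited table, and the lower one was Egfl7 at -0.90. Endothelial markers summed to 281 CPM in the first numerator group, 183 CPM in the second and 195 to 196 CPM in the denominator group, and the defining gene Cdh5 was not listed. Of 12 stromal markers 3 were listed, with 0 higher and 2 lower, Runx2 at -2.31 and Pdgfrb at -2.83 in the authors' deposited table. Their median was -2.31 (-3.80 with equal totals). They summed to 7.12 CPM in the first numerator group, 29.6 CPM in the second and 35.3 to 35.4 CPM in the denominator group. Cxcl12, Lepr, Kitl, Col1a1 and Col3a1 were not listed.

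For the remaining cell types the counts were mixed, beside 18.8% of all genes called higher and 3.49% lower. The share of dendritic cell markers called higher lay near that over all genes. Of 10 listed dendritic cell markers 2 were higher and 1 lower in the first comparison of the authors' deposited table, Itgax at 4.20 and Bst2 at 1.48, both found in macrophages too, and Flt3 at -2.28; the list had a median of -1.36 (-2.85 with equal totals) and summed to 338 CPM in the first numerator group, 151 CPM in the second and 151 to 152 CPM in the denominator group. Of 8 eosinophil markers 4 were higher and 1 lower in the authors' deposited table, with Ccr3 at 5.75, Ear2 at 3.71, Ear1 at 1.86 and Prg2 at 1.44 higher and Siglec5 at -1.60 lower. The peroxidase gene Epx, at -0.39 in the authors' deposited table, did not pass, and Ccr3 stands in the list of macrophage genes too. Their median was 0.88 (-0.61 with equal totals) and their sum 1760 CPM in the first numerator group, 433 CPM in the second and 420 to 427 CPM in the denominator group. Of 12 erythroid markers 5 were higher and 3 lower in the authors' deposited table, with a median of 0.18 (-1.31 with equal totals). The globin genes Hbb-b2 at 4.89 and Hba-a1 at 3.97 had the smallest p-values of that list in the authors' deposited table, with Hbb-b1 at 3.33 and Alas2 at 2.97 next. In the authors' deposited table the lower ones included the membrane skeleton gene Ank1 at -1.42 and the membrane protein gene Rhag at -1.17. The erythroid list summed to 28505 CPM in the first numerator group, 1914 CPM in the second and 1779 to 1816 CPM in the denominator group. Of 5 listed microglia and brain markers 2 were higher and 0 lower, among them P2ry12 at 3.74 in the authors' deposited table, with a median of 0.03 (-1.46 with equal totals) and sums of 197 CPM in the first numerator group, 54.0 CPM in the second and 54.3 to 54.5 CPM in the denominator group.

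Genes of the sort were checked against the label, beside 18.8% of all genes called higher and 3.49% lower in the first comparison. Of 11 listed, 5 were higher and 1 lower in the first comparison of the authors' deposited table, with a median of 0.71 (-0.78 with equal totals) and sums of 2146 CPM in the first numerator group, 680 CPM in the second and 668 to 676 CPM in the denominator group. Kit, the receptor that defines the gate, had 38.8 CPM in the first numerator group, 60.3 CPM in the second and 58.6 to 58.7 CPM in the denominator group, and did not pass in either comparison of the authors' deposited table (adjusted p = 0.128 and 1). The granule genes Elane at 2.37 and Mpo at 2.40, typical of granulocyte and monocyte progenitors, and the Fc receptor gene Fcgr3 at 2.08 were higher in the authors' deposited table. Kdr did not pass in either comparison of the authors' deposited table (adjusted p = 0.617 and 1), with 2.24 CPM in the first numerator group, 0.378 CPM in the second and 0.817 to 0.938 CPM in the denominator group. Cd3e was not listed.

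The genes whose pair of fold changes lay nearest to the medians of the 8 genes were sought among 9840 others with a mean of at least 4 CPM, by the distance over the 2 log2 fold changes. They were Treml4, with 5.03 and -0.94 in the first and second comparison of the authors' deposited table, Cadm1 with 5.02 and -1.21, Gp49a with 5.16 and -0.90, Maf with 5.13 and -0.87, Btn3a3 with 4.88 and -1.08 and Hpgds with 4.89 and -0.97. Their distances ran from 0.14 to 0.22. The likeness rests on 2 comparisons with a shared denominator group. Btn3a3 had 0.289 CPM and Cadm1 0.873 CPM in the denominator group, levels at which a fold change is uncertain.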

How the data were processed

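Bulk RNA sequencing of 10 libraries in 3 groups was used, as 1 table of the whole series. The submitters' processing notes list mm8 as the genome build and Bowtie 0.12.2 as a tool, and the sources used here do not give the counting and testing programs. Per the file headers the authors deposited log fold changes and mean log CPM, read as log2 values, for 2 comparisons. The p-values deposited by the authors carry adjusted values that equal the Benjamini-Hochberg adjustment recomputed here. Genes were called at an adjusted p under 0.05. No count or value per library was at hand, so the planned edgeR fits could not be made.

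Group levels were derived with numerator weights of 0.48 and 0.59, chosen on a grid of 0.01 so that the shared denominator levels matched over genes above 3 log2 CPM. The approximate standard error is the fold change divided by the normal deviate of the authors' p-value, and the approximate 95% interval is 1.96 such errors on each side. These steps were tested on simulated data built with the same formulas. That checks the calculation, not whether the formulas hold for these data. Symbols were matched through RefSeq synonyms (GRCm38), and promoter windows came from RefSeq. The 8 genes and the 17 lists were chosen with earlier results of these data known. Named were the 8 genes, Kdr and Kit, the 4 members of each list with the smallest p in the first comparison among those called, any called in the second, and the 6 nearest genes by fold change, predicted genes and clone names left out; some genes under this rule are not reported here. Others (Id3, Mfge8, Thbs1, Itgb1, Ccr2, Cx3cr1, F13a1, Siglec5, Epx, Gpr132, Siglecg, Egfl7, Rhag, Ank1 and genes not listed) were chosen after their values were seen. Python 3.11.15, numpy 2.4.6, pandas 2.3.3, scipy 1.17.1 and matplotlib 3.10.9 were used.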

Additional observations from a re-analysis of the deposited data

How the results depend on the processing

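In the first comparison 8 of 8 genes were called, and 0 of 8 in the second one, at adjusted p thresholds of 0.01 and 0.10, with a log2 fold change of at least 1 in size, among genes with a mean of at least 1 CPM (which leaves out Mertk in the second comparison) and without small RNA genes. In the first comparison these counts follow from the choice of the genes. Either other scale moves all fold changes of a comparison by 1 constant, too small to turn any member, so unturned directions are no test. The median of the members in the first comparison, 5.08, was 5.22 centred on the median of all genes and 3.59 at equal summed CPM. Without small RNA genes, 1 gene (Eef1a1) rather than 14 was called in the second comparison, and C1qa was not. Equal weights moved no derived member level by more than 0.21 (log2).

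At equal summed CPM, tried after seeing the data, medians of the first comparison turned to -0.95 for macrophage transcription factors, -0.88 for engulfment, -1.32 for signals of dying cells, -1.44 for Vcam1 partners, -1.04 for TAM signalling, -0.58 for monocytes, -0.61 for eosinophils, -1.46 for microglia and brain, -1.31 for erythroid and -0.78 for gate genes. Of 34 counts of list genes called in 1 direction, also tried afterwards, 29 stayed within 1.5 times at a threshold of 0.01 and 33 at 0.10. Leaving out replicates and edgeR or DESeq2 fits were not run, since they need values per library. No paired analysis was possible because the table holds no value per library. Depth is unknown, which limits the genes near 1 CPM most, Fcgr1 and Mertk.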
